A study of Cricetulus griseus with 9 samples.

Results

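Pre-miR-29b-1 was set directly against pre-miR-29a in CHO-K1, an established Chinese hamster ovary cell line. The comparison holds the 6 libraries whose labels name either molecule, 3 of each, out of 9 in the series. A pre-miR is a synthetic precursor that raises the level of the microRNA it is named for. Cells were transfected with the lipid reagent Lipofectamine RNAiMAX and left for 48 h, in medium with charcoal-stripped serum, and poly(A) mRNA was sequenced. The other 3 libraries came from cells given anti-miR-29a, an inhibitor that, by the submitters' account, acts on both microRNAs. They are used here to estimate the spread between libraries and to find the genes that respond to miR-29. Every group shares the cell line, the reagent and the time, and untreated cells were not analysed here. The dose of each molecule is not stated. The submitters report a quantitative PCR check of both microRNAs, whose values were not analysed here. The labels mention triplicate cultures and the series text separate experiments, but neither ties a library to a culture or an experiment. The p-values thus rest on library-to-library spread that may be technical, and if each molecule had its own experiment, molecule and experiment cannot be told apart.

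MicroRNAs guide Argonaute proteins to mRNAs, mainly by pairing of the seed near the 5′ end with sites in the 3′ untranslated region, and lower the stability or translation of those mRNAs. MiR-29a and miR-29b carry the same seed and differ towards the 3′ end, where miR-29b has a short motif that has been linked to import into the nucleus. The family is best known for lowering collagens and other extracellular matrix transcripts. In the RefSeq table of assembly CriGri-PICRH-1.0, Mir29b and Mir29a are neighbours on the same chromosome, with 0 other genes starting between them. The comparison asks whether 2 microRNAs with 1 seed leave different transcript profiles. Genes are given by mouse Ensembl identifier, since none could be matched to a name (0 of 15557).

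The pre-miR-29a libraries were not alike. Pre-miR-29a replicate 1 differed from the 3 pre-miR-29b-1 libraries by a median of 0.0839, 0.0853 and 0.0909 on the log2(FPKM + 1) scale over the 9504 tested genes. From pre-miR-29a replicates 2 and 3 it differed by 0.158 and 0.132, while those 2 libraries differed from each other by 0.0920. The pre-miR-29b-1 libraries differed among themselves by 0.0606 to 0.0870. By this measure pre-miR-29a replicate 1 was closer to every pre-miR-29b-1 library than to either library of its own group. By Pearson's r across genes this held for pre-miR-29b-1 replicates 2 and 3, at 0.9926 and 0.9923, but not for replicate 1, at 0.9884. Pre-miR-29a replicate 1 had an r of 0.9896 and 0.9885 with replicates 2 and 3 of its own group. By r the trait was not particular to this library. Pre-miR-29a replicate 2 had 0.9919 and 0.9928 with pre-miR-29b-1 replicates 2 and 3, and 0.9859 with replicate 1. Within its own group it had 0.9896 and 0.9911. As for pre-miR-29a replicate 1, the further counts were these. The value of pre-miR-29a replicate 1 was nearer to the pre-miR-29b-1 mean than to the mean of pre-miR-29a replicates 2 and 3 for 6647 of 9504 genes (69.9%). On the first principal component of the 6 libraries, which held 41.6% of the variance, it lay at -3.22, between the pre-miR-29b-1 libraries at -18.8, -5.76 and -1.33, and away from its own group at 11.2 and 17.9. The median standard deviation of a gene was 0.109 within pre-miR-29a, 0.0639 within pre-miR-29b-1 and 0.0707 within anti-miR-29a, and 0.0650 in pre-miR-29a without replicate 1. The main results below are therefore given with and without this library.

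**Figure D1:**
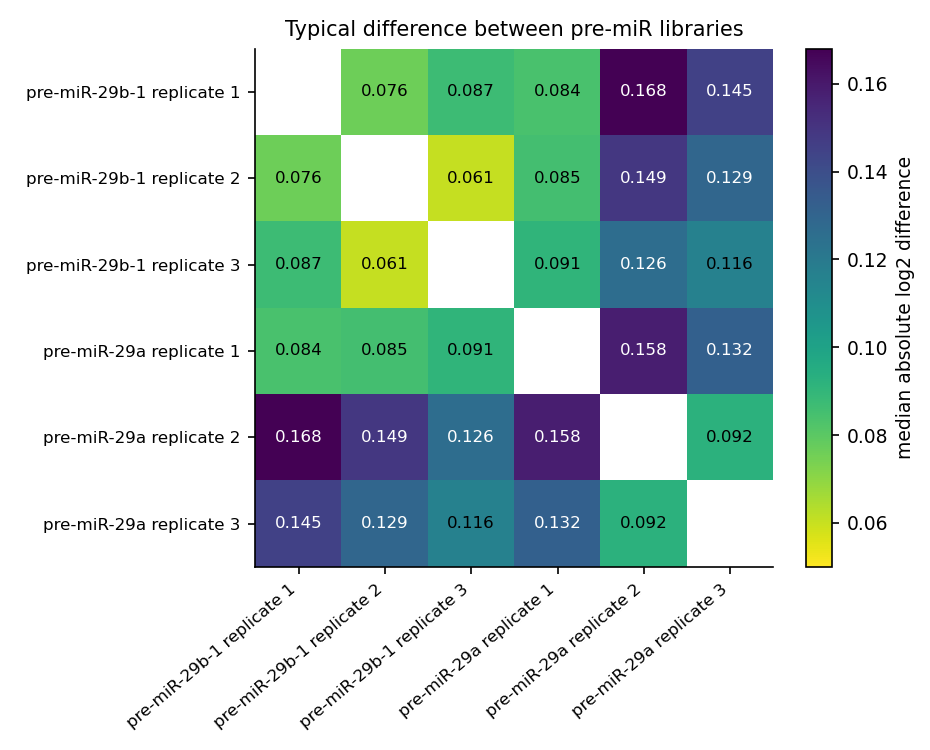
Median absolute difference in log2(FPKM + 1) over 9504 genes for each pair of pre-miR libraries, on the colour scale and printed in each cell. Pre-miR-29a replicate 1 differs from the pre-miR-29b-1 libraries by 0.0839 to 0.0909 and from its own group by 0.132 and 0.158.

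With all libraries, 1 of the 9504 tested genes passed the threshold, which is 0.0105% of them, and it was higher with pre-miR-29b-1. ENSMUSG00000031167 stood at 158.0, 144.9 and 150.4 FPKM in the pre-miR-29b-1 libraries and at 91.2, 93.0 and 79.5 FPKM in the pre-miR-29a libraries. The anti-miR-29a libraries were at 162.3, 165.3 and 159.4 FPKM. All 3 pre-miR-29a libraries lay far below the other 6, and the pre-miR-29b-1 libraries lay just below those of anti-miR-29a. The log2 difference was 0.78 (SE 0.063, 95% interval 0.64 to 0.92, n = 3 and 3), or 1.71-fold, and limma gave an adjusted p of 0.00282. Without pre-miR-29a replicate 1 it was 0.81, with an adjusted p of 0.0129 (limma), and the pre-miR-29a library left out lay at 91.2 FPKM, beside its group. The call was lost when the anti-miR-29a libraries were kept out of the model, where the adjusted p was 0.0531 (limma), and without moderation of the variances, where it was 0.209. The gene is a model of 471 coding bases in 5 exons on scaffold JH000543 of CriGri_1.0, from 839716 to 841390 on the minus strand, and shares no bases with another gene. In bulk RNA, more cells with the transcript and more of it per cell cannot be told apart.

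The largest positive difference among the genes that the naming rule admits belonged to ENSMUSG00000068888. It stood at 14.6, 10.3 and 11.2 FPKM with pre-miR-29b-1 and at 7.36, 4.87 and 5.13 FPKM with pre-miR-29a. The groups did not overlap, which the rule for naming genes required, and replicate 1 was the highest library in each. The log2 difference was 0.95 (SE 0.154, n = 3 and 3) and did not pass with all libraries equally weighted and no block, at an adjusted p of 0.22 (limma). It was 1.11 without pre-miR-29a replicate 1, where it passed at 0.0197 (limma), which the rule also required. Against the anti-miR-29a mean of 11.6 FPKM, the mean was 5.79 FPKM with pre-miR-29a (log2 difference -0.91, adjusted p 0.000623, limma) and 12.02 FPKM with pre-miR-29b-1 (0.04, adjusted p 0.855, limma). It has 2 models and shares exon bases with another gene, so its reads may be split. Its longest model spans JH000752 from 171177 to 189317, minus strand, with 459 coding bases in 2 exons.

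In the opposite direction, ENSMUSG00000026848 stood at 5.33, 10.4 and 6.26 FPKM with pre-miR-29b-1 and at 10.4, 13.8 and 17.1 FPKM with pre-miR-29a. The groups barely separated, with 10.40 FPKM in the highest pre-miR-29b-1 library and 10.43 FPKM in the lowest pre-miR-29a library. The log2 difference was -0.85 (SE 0.262, adjusted p 0.225, limma) and was -1.02 without pre-miR-29a replicate 1 (adjusted p 0.0474, limma). This gene also has 2 models and shares bases with another, with its longest model on JH002674 from 19668 to 26608, plus strand, in 6 exons. ENSMUSG00000028549 stood at 8.85, 11.5 and 11.4 FPKM with pre-miR-29b-1 and at 14.1, 16.3 and 16.3 FPKM with pre-miR-29a. Every pre-miR-29a library lay above every pre-miR-29b-1 library, and the anti-miR-29a libraries, at 11.8, 15.1 and 11.1 FPKM, lay across both. Its log2 difference was -0.52 (SE 0.127, adjusted p 0.22, limma), and -0.59 without pre-miR-29a replicate 1 (adjusted p 0.0345, limma). For this gene and ENSMUSG00000026848 the naming rule required both the lack of overlap and the pass without that library. ENSMUSG00000028549 has 1 model of 522 coding bases in 7 exons on JH000076 from 1096906 to 1125277, plus strand, with no shared bases.

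**Figure D2:**
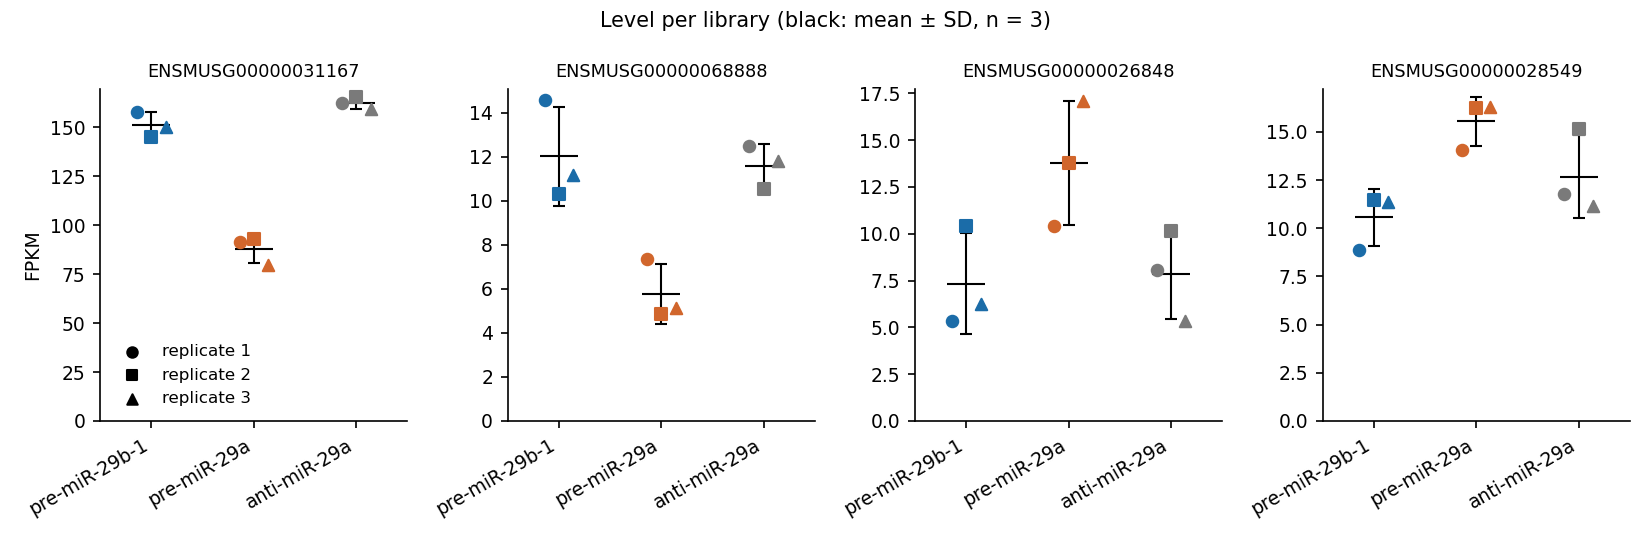
FPKM per library for the 4 named genes, with marker shape for the replicate number, colour for the group and black bars for the mean and SD (n = 3). ENSMUSG00000031167 stands at 79.5 to 93.0 FPKM with pre-miR-29a and at 144.9 to 165.3 FPKM in the other groups.

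The rule behind these names left 268 genes with pre-miR-29b-1 higher and 270 with it lower. In the 12 with the largest positive difference the log2 values ran from 0.70 to 0.95, and in the 12 with the largest negative difference from -0.85 to -0.33. The 12 positive genes had a pattern over replicate numbers too. Replicate 1 was the highest of its group in 12 of the 12 for pre-miR-29b-1, in 10 for pre-miR-29a and in 11 for anti-miR-29a. Among the 12 negative genes, replicate 1 was the lowest of its group in 7 for pre-miR-29b-1 and in 11 for pre-miR-29a. Both sets were made of short genes, with median coding lengths of 814.5 and 571.5 bases against 1309.5 over all tested genes.

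For most genes the difference was bounded to within 1.5-fold, as judged by the spread between libraries. The 95% interval of the log2 difference had a median half-width of 0.167, which is 1.12-fold. It lay within 1.5-fold either way for 8812 of 9504 genes (92.7%), and for 89.9% without pre-miR-29a replicate 1. This share was 80.5% in the bin of lowest level, below 14.8 FPKM, and 95.7%, 97.7% and 96.9% in the next 3 bins of 2376 genes. The median absolute log2 difference over all tested genes was 0.088, and 0.125 without pre-miR-29a replicate 1. Unadjusted limma p-values with all libraries were under 0.05 for 1570 genes, 16.5% of those tested, beside 475.2 expected if no gene differed. The level was higher with pre-miR-29b-1 for 875 of the 1570 (9.21%) and higher with pre-miR-29a for 695 (7.31%). Genes share libraries, so such counts are not made of independent genes. All 3 pre-miR-29b-1 libraries lay above all 3 pre-miR-29a libraries for 971 genes (10.2%), and below them for 830 (8.73%).

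Leaving out pre-miR-29a replicate 1 changed the answer. The count was then 1370 genes, 14.4% of those tested (limma). Pre-miR-29b-1 had the higher level for 625 of them (6.58%) and the lower for 745 (7.84%). The remaining libraries did not overlap for 2490 genes with pre-miR-29b-1 above (26.2%) and 2568 with it below (27.0%). With fewer libraries a lack of overlap comes more easily, so these shares cannot be set directly against those with all libraries. With the replicate number as a block and all libraries, 184 genes passed (1.94%). Leaving out any other of the 9 libraries left 1 gene. The differences were small, with 1298 of the 1370 under 1.5-fold, 63 from 1.5-fold up to 2-fold, 9 at or above 2-fold and a median absolute log2 difference of 0.273, or 1.21-fold. The 625 genes stood at medians of 0.004, -0.05 and -0.11 relative to the anti-miR-29a mean (log2) in the pre-miR-29b-1 libraries and at -0.43 and -0.42 in pre-miR-29a replicates 2 and 3. Pre-miR-29a replicate 1, which the choice did not use, stood at -0.10, among the pre-miR-29b-1 libraries. The 745 genes stood at 0.03, 0.05 and 0.07 with pre-miR-29b-1, at 0.30 and 0.29 in pre-miR-29a replicates 2 and 3, and at 0.06 in replicate 1. In 1185 of the 1370 genes (86.5%) replicate 1 was nearer to the pre-miR-29b-1 mean. What sets this library apart from the other pre-miR-29a libraries was not tested.

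The difference between the pre-miRs moved with level and with coding length. Over the 4 level bins from lowest to highest, the median log2 difference was 0.071, 0.025, -0.018 and -0.062, and without pre-miR-29a replicate 1 it was 0.112, 0.048, -0.023 and -0.100. In the bin of highest level, from 92.9 FPKM, pre-miR-29a replicates 2 and 3 stood at 0.104 and 0.054 relative to the anti-miR-29a mean, and the other pre-miR libraries between -0.037 and 0.003. In the lowest bin those 2 libraries stood at -0.095 and -0.083, and the other 4 between 0.011 and 0.063. Of the genes called without replicate 1, pre-miR-29b-1 had the higher level for 229 and the lower for 18 in the lowest bin, and for 64 and 456 in the highest. The direction of a call thus went with level.

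Coding length showed a slope too, of the opposite sign. The median log2 difference was -0.026 in the tenth of genes with the shortest models, of 66 to 498 bases, and 0.053 in that with the longest, of 3336 to 26418 bases. Without pre-miR-29a replicate 1 these values were -0.047 and 0.107. Of the longest genes 115 were called with pre-miR-29b-1 higher and 5 with it lower, and of the shortest 26 and 87. Within the pre-miR-29a group the libraries leaned opposite ways. Replicate 1 deviated from the group mean by -0.057 in the shortest and by 0.093 in the longest genes, and replicate 2 by 0.093 and -0.075, while every deviation of the pre-miR-29b-1 libraries in these deciles lay between -0.031 and 0.017. Anti-miR-29a libraries leaned opposite ways as well, with a Spearman's rho between deviation and coding length of -0.21 for replicate 2 and 0.28 for replicate 3, beside 0.31 and -0.39 for pre-miR-29a replicates 1 and 2. Spearman's rho across the 9504 genes between the difference and coding length was 0.17, and 0.23 without replicate 1, where genes share libraries and are not independent. Without pre-miR-29a replicate 1, centring the libraries within bins of level gave 417 calls (239 higher, 178 lower) in place of 1370, and centring within deciles of coding length gave 1142 (539 and 603). Both settings were chosen after seeing the data.

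**Figure D3:**
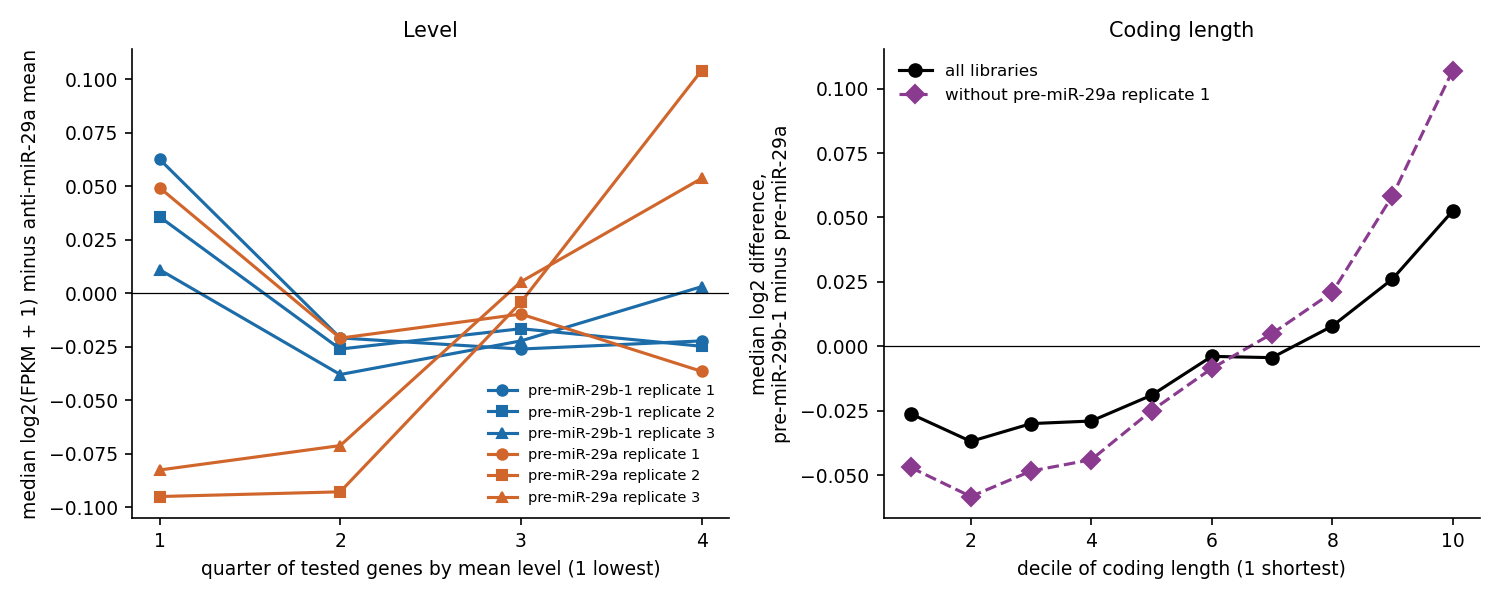
Left, median log2(FPKM + 1) of each pre-miR library minus the anti-miR-29a mean in 4 bins of 2376 genes by mean level. Right, median log2 difference (pre-miR-29b-1 minus pre-miR-29a) by decile of coding length, with all libraries and without pre-miR-29a replicate 1. Pre-miR-29a replicates 2 and 3 run from -0.095 and -0.083 in the lowest bin to 0.104 and 0.054 in the highest, and the difference with all libraries is -0.026 in the shortest, lowest at -0.037 in the next decile and 0.053 in the longest genes.

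The transcripts that respond to miR-29 as a whole were then compared between the pre-miRs. At least 2-fold lower with both pre-miRs together than with anti-miR-29a were 362 of the 9504 genes (3.81%), and 78 (0.821%) were at least 2-fold higher (limma, adjusted p under 0.05). The size of the difference between the pre-miRs does not depend on anti-miR-29a, but the calls and intervals do, through the shared estimate of spread. The choice also uses the mean of the 6 pre-miR libraries in which the difference is read. Since pre-miR-29a has the larger spread, with a median SD of 0.109 against 0.0639, a choice by low mean favours low values with pre-miR-29a, and a choice by high mean high ones. Values read in libraries that the choice did not use are therefore given below. Relative to the anti-miR-29a mean, the 362 lower genes had medians of -1.23, -1.23 and -1.20 in the pre-miR-29b-1 libraries. In the pre-miR-29a libraries the medians were -1.28, -1.35 and -1.35. The medians of the groups did not overlap, with pre-miR-29a replicate 1 between the others and closer to pre-miR-29b-1. Gene by gene, that library was nearer to the pre-miR-29b-1 mean for 217 of the 362 (59.9%), a smaller share than the 69.9% of all tested genes. The lower genes stood further down with pre-miR-29a by a median of 0.07 (log2), or 1.05-fold, and by 0.09 without replicate 1, against -0.001 and 0.001 over all tested genes. Of the 362 genes, 260 (71.8%) had the higher level with pre-miR-29b-1, as did 260 without replicate 1, against 49.6% and 50.2% of all tested genes. With all libraries 0 of the 362 passed the threshold in limma, against 1 of all 9504. An unadjusted limma p under 0.05 was found for 93 of the 362, 82 with pre-miR-29b-1 higher and 11 with it lower. Among all tested genes it was found for 1570 (16.5%), 875 higher and 695 lower. Without replicate 1, limma called 55 of the 362 with pre-miR-29b-1 above and 10 with it below, which makes 18% called beside 14.4% of all tested genes. The interval stayed within 1.5-fold for 335 of the 362 (92.5%).

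In a setting added after seeing the data, genes at least 2-fold lower were chosen on 1 replicate number of each pre-miR, and the difference was read in the other 4 pre-miR libraries. Chosen on replicate 1, 377 genes had a median difference of 0.071, with 67.1% above 0 against 50.6% of all tested genes. Chosen on replicate 2, 405 genes had 0.060, with 67.9% against 47.0%. Chosen on replicate 3, 396 genes had 0.078, with 67.2% against 50.2%. The lower genes thus stood higher with pre-miR-29b-1 also in libraries that did not choose them.

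Level moved with this result, so the lower genes were set beside all genes of the same level bin. In the lowest bin 90 lower genes had a median difference of 0.136, against 0.071 over the bin. In the next bins the medians were 0.114 for 118 genes against 0.025, then 0.031 for 91 genes against -0.018, and 0.037 for 63 genes against -0.062. In each of the 4 bins the lower genes were thus displaced towards a higher level with pre-miR-29b-1 than the bin as a whole. Without pre-miR-29a replicate 1 their medians were 0.152, 0.116, 0.034 and 0.019, against 0.112, 0.048, -0.023 and -0.100 over the bins. With the libraries centred by level, the medians relative to anti-miR-29a were -1.22, -1.21 and -1.18 for pre-miR-29b-1 and -1.25, -1.29 and -1.31 for pre-miR-29a. After quantile normalization they were -1.20, -1.17 and -1.14 against -1.22, -1.23 and -1.23, and the share higher with pre-miR-29b-1 dropped to 58.8%, beside 43.9% of all tested genes.

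For the 78 genes higher with both pre-miRs no direction held under every setting. Their medians relative to anti-miR-29a were 1.19, 1.14 and 1.19 with pre-miR-29b-1 and 1.25, 1.25 and 1.28 with pre-miR-29a, without overlap. The median difference between the pre-miRs was -0.06, and 46 of the 78 (59.0%) stood higher with pre-miR-29a, against 50.4% of all tested genes. Over the same 78 genes it was also -0.06 without pre-miR-29a replicate 1. With the libraries centred by level and after quantile normalization, the medians over these genes were -0.104 and -0.113. The share higher with pre-miR-29b-1 was then 33.3% and 32.1%, beside 48.7% and 43.9% of all tested genes. Chosen on replicate 1 of each pre-miR and read in the other libraries, 128 such genes had a median of 0.072, the opposite sign, while choices on replicates 2 and 3 gave -0.040 and -0.048. Choosing the genes anew without 1 library gave -0.008 without anti-miR-29a replicate 1, -0.038 without anti-miR-29a replicate 3, -0.014 without pre-miR-29b-1 replicate 2 and -0.026 without pre-miR-29a replicate 3. With any other library left out the median lay between -0.0498 and -0.0923, the latter without pre-miR-29a replicate 1. The median was -0.015 at a pseudocount of 0.1, and at 5, which leaves 23 such genes, the sign turned, at 0.004.

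**Figure D4:**
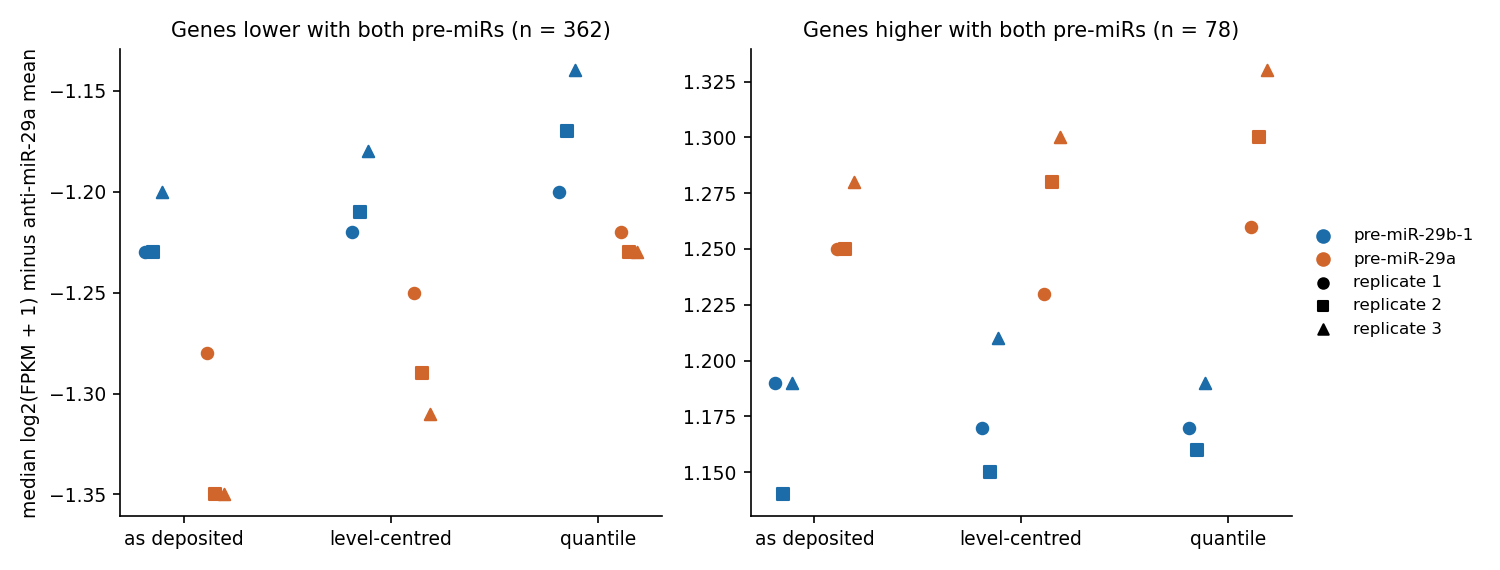
Median log2(FPKM + 1) minus the anti-miR-29a mean in each pre-miR library, for the genes at least 2-fold lower (left, 362) and at least 2-fold higher (right, 78) with both pre-miRs, on the deposited scale and after 2 rescalings. The pre-miR-29a libraries lie at -1.28 to -1.35 and the pre-miR-29b-1 libraries at -1.20 to -1.23 for the lower genes on the deposited scale.

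All tested genes were also grouped by their response to both pre-miRs together, with the same overlap between choice and reading. The median difference between the pre-miRs was 0.076 in 350 genes that were 2- to 4-fold lower, 0.062 in 711 genes 1.5- to 2-fold lower and 0.031 in 1393 genes 1.2- to 1.5-fold lower. It was -0.013 in 4996 genes within 1.2-fold, and then -0.030 in 1490, -0.029 in 455 and -0.075 in 80 genes at rising sizes of increase. The 29 genes at least 4-fold lower did not continue the series, with a median difference of 0.021 and 17 of 29 above 0. These most strongly lowered genes had medians of -2.24, -2.29 and -2.24 with pre-miR-29b-1 and of -2.28, -2.24 and -2.40 with pre-miR-29a, which overlap. With the libraries centred by level the same bins gave -0.003 for the 29 genes, then 0.071, 0.053, 0.026, -0.009, -0.029, -0.055 and -0.115. With the grouping on 1 replicate number and the reading in the other libraries, genes 2- to 4-fold lower had medians of 0.083, 0.060 and 0.085 over the 3 choices, and genes 1.5- to 2-fold lower 0.059, 0.043 and 0.066. Genes at least 4-fold lower had 0, 0.049 and 0.0004. On the side of increase, genes 1.2- to 1.5-fold higher kept medians below 0, at -0.006, -0.030 and -0.038. The medians did not keep their sign for genes 1.5- to 2-fold higher, at 0.028, -0.036 and -0.040, or at least 2-fold higher, at 0.072, -0.040 and -0.048.

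**Figure D5:**
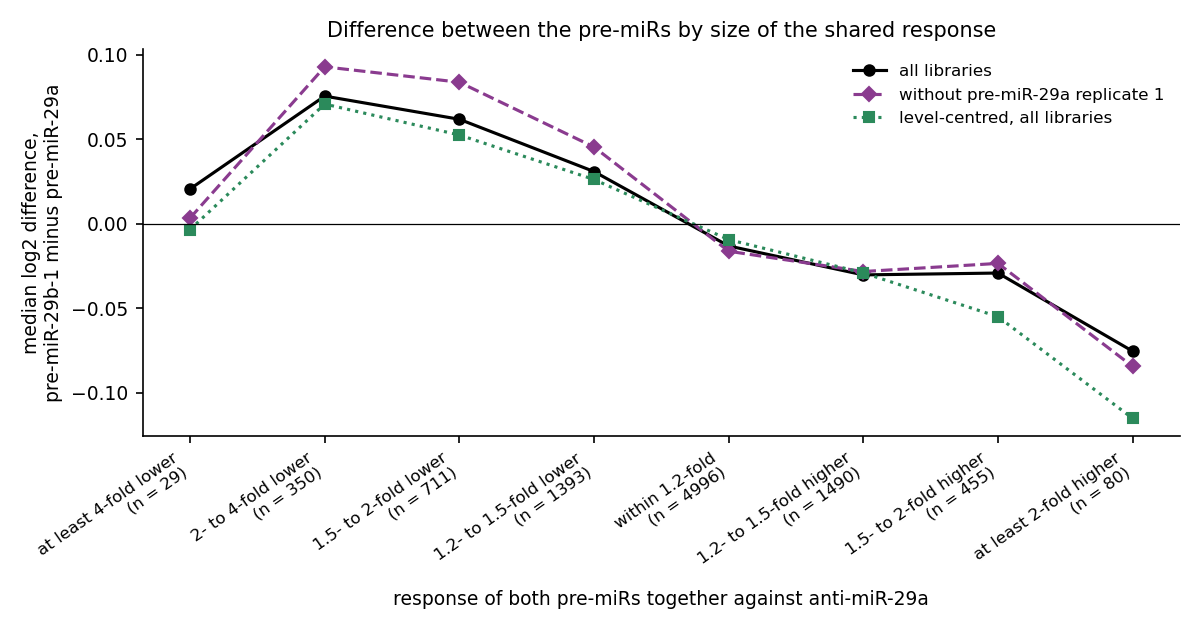
Median log2 difference (pre-miR-29b-1 minus pre-miR-29a) in 8 groups of genes by their response to both pre-miRs against anti-miR-29a, with all libraries, without pre-miR-29a replicate 1 and after centring by level. The median is 0.076 in genes 2- to 4-fold lower and -0.075 in genes at least 2-fold higher, and 0.021 in the 29 genes at least 4-fold lower.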

How the data were processed

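The authors deposited FPKM, a read level scaled by gene length and library size, for 15557 genes. The submitters' processing notes name FastQC, TopHat2 2.0.13 and Cuffnorm, and leave the Cuffnorm scaling and strand setting unstated. Gene models come from Ensembl 66 mouse proteins placed on CriGri_1.0, per the file headers, so untranslated regions are outside the models (99.87% of model lengths were multiples of 3). Depth was read from the steps of low FPKM of genes with 3000 or more coding bases, where 99.1% to 100% of the values at or under 5 reads came out whole to a tolerance of 0.2 reads. Implied depth was 15.19 to 20.79 M reads per library, and 1 FPKM stood for 19.9 to 27.2 reads at the median coding length.

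The 9504 genes averaging 1 FPKM or more were tested on log2(FPKM + 1), which understates the change of low genes. The test was limma 3.58.1 in R 4.3.3 with variances that follow a trend in level, 1 term per group and all 9 libraries in the fit. It was two-sided, with Benjamini-Hochberg adjustment over all tested genes and a threshold of 0.05, and was tested on simulated data. Alternatives changed the pseudocount, filter, scaling, variance model, weights, libraries and the replicate number as a block. Centring each library within bins of level or coding length, and choosing responding genes on 1 replicate number, were added after seeing the data. Groups, comparison and gene sets were chosen with earlier results of these data known.

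Genes to name were those past the threshold, then those with the largest difference among genes of at least 5 FPKM without overlap between the pre-miR groups, with an unadjusted p under 0.05, and past the threshold without pre-miR-29a replicate 1. The RefSeq gene table of CriGri-PICRH-1.0 matched 0 of 15557 identifiers, so at most 2 identifiers per direction are given and the 27 gene lists written by symbol could not be used. Cell cycle lists are the mouse Ensembl identifiers of marker pairs distributed with an R package for single-cell data, kept where a gene marks 1 phase alone.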

Additional observations from a re-analysis of the deposited data

Results flagged for a closer look

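ENSMUSG00000031167 differed in level between the pre-miR groups in a test of the difference itself. The call was lost with only the 6 pre-miR libraries (adjusted p 0.0531, limma) and without moderation of the variances (0.209, limma). The log2 difference with all 9 libraries was 0.78, with all 3 pre-miR-29a libraries below the other 6. Against anti-miR-29a the log2 difference was -0.10 for pre-miR-29b-1 (adjusted p 0.192, limma) and -0.88 for pre-miR-29a (2.08e-06).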

How the results depend on the processing

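The count of 1 gene between the pre-miRs held under both pseudocounts, both filters, both rescalings, without a variance trend, in genes with 1 model, and under either centring with all libraries. In limma it was 0 with only the 6 pre-miR libraries (1295 at an unadjusted p under 0.05) and 0 without moderation (1333), 3627 with library weights, and 1 to 1370 without 1 library, where 1370 came from omitting pre-miR-29a replicate 1. The weights ranged from 0.213 for that library to 3.54 for pre-miR-29a replicate 3. Pre-miR-29a replicate 2 had 0.429, so every weighted result rests mostly on replicate 3 for the pre-miR-29a group. With pre-miR-29a replicate 1 left out, level centring gave 417 and length centring 1142. The replicate block gave 184 genes (168 higher, 16 lower), 90 with only the pre-miR libraries, and 577 with pre-miR-29a replicate 1 left out, and 123 of the 184 were among the 1370. Same-numbered pre-miR libraries deviated together with r of 0.21, -0.018 and 0.14, and 4 of 6 libraries correlated best with their own number, so the block rests on a shared number only. The share of genes with an interval within 1.5-fold was 92.7% as reported. It was 88.9% and 96.5% at pseudocounts of 0.1 and 5, 94.8% above 5 FPKM, 89.9% without moderation, 94.1% with the replicate block and also with only the pre-miR libraries in it, 91.7% with the block and pre-miR-29a replicate 1 left out, 94.6% in genes with 1 model, 90.5% and 90.1% with level and length centring without that library, and 89.8% to 92.8% without 1 library. The median difference of the lower genes stayed above 0. It was lowest after quantile normalization, at 0.0407, with 171 of the 301 genes then chosen above 0. It was 0.0455 (without pre-miR-29b-1 replicate 3) to 0.102 without 1 library, and 0.114 with length centring and pre-miR-29a replicate 1 left out. The median difference of the higher genes reversed to 0.00441 with a pseudocount of 5 and to 0.0717 when chosen on replicate 1 and read in the others. The model without anti-miR-29a cannot give these 2 medians, since the genes are chosen against anti-miR-29a. The cause was not tested. The 4 named genes kept their direction under every alternative that gave them a value. ENSMUSG00000068888 and ENSMUSG00000028549 passed in limma with the replicate block (adjusted p 0.00543 and 0.0358), and with library weights these and ENSMUSG00000026848 passed (0.00236, 0.0045 and 0.0162).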

Other observations

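Markers of cell cycle phases, known here by identifier alone, stood close together in the pre-miR groups. Of 29 tested S phase markers 18 were lower with pre-miR-29b-1, with a median log2 difference of -0.05, and of 23 tested G2M markers 17 were lower, with a median of -0.06. Over all tested genes 50.4% were lower. Relative to anti-miR-29a the G2M markers had medians of 0.22, 0.11 and 0.11 in the pre-miR-29b-1 libraries and of 0.11, 0.15 and 0.24 in the pre-miR-29a libraries, so the groups overlapped. The S phase markers stood at -0.12, -0.13 and -0.18 against -0.15, -0.06 and -0.01, which overlap as well. No marker passed the threshold with all libraries, and without pre-miR-29a replicate 1 limma called 0 higher and 4 lower of 29 for S, 1 higher and 3 lower of 23 for G2M and 1 higher and 3 lower of 11 for G1, beside 14.4% of all tested genes. Without that library the medians were -0.07 for S and -0.07 for G2M. The 11 markers of G1 had a median of -0.04, which was 0.01 without it.

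Genes with 1 coding exon leaned towards pre-miR-29b-1. The median log2 difference was 0.04 in 476 such genes, with 60.7% above 0, against -0.004 and 49.0% in 9028 genes with more exons. Without pre-miR-29a replicate 1 the medians were 0.06 and -0.001. These groups of genes were not matched for level or coding length, with both of which the difference moved. Below the filter, 3872 genes had a value above 0 in at least 1 library. Of these 3872 genes, the pre-miR-29b-1 libraries lay all above the pre-miR-29a libraries for 152 and all below for 139, and for 313 and 282 without pre-miR-29a replicate 1. Over the tested genes the shares were 10.2% and 8.73%, and 26.2% and 27.0% without it. Libraries that share a value of 0 cannot separate, so counts near the floor and shares over tested genes are not directly comparable.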
